A study of Mus musculus with 12 samples.

Results

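The genes described here are 10 genes of protein folding in the endoplasmic reticulum (ER) and of the unfolded protein response: Xbp1, Hspa5, Hsp90b1, Sdf2l1, Pdia4, Calr, Canx, Dnajb9, Herpud1 and Edem1. They were taken by symbol from 35675 genes, all 10 were found, and all 10 passed the filter on low counts. RNA came from mouse spinal cord at postnatal day 10, from cells that a sorter selected for the tdTomato reporter and large forward scatter, with 1 library for each of 12 mice. The 4 control mice were CnpCre:Rosa26-StopFlox-TdTomato. The 4 RalA cKO mice were CnpCre:RalAflox/flox:Rosa26-StopFlox-TdTomato, and the 4 RalAB cKO mice carried RalBflox/flox in addition to these alleles. All groups, controls included, thus carried CnpCre and the reporter. CnpCre drives recombination from Cnp, a gene of myelinating glia and their precursors, and a sort on the reporter takes any cell in which Cre has acted. RalA and RalB are small GTPases of vesicle traffic, and the series compared deletion of RalA, and of RalA with RalB, with control during development.

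Proteins bound for membranes or secretion fold in the ER with the help of chaperones such as BiP, the product of Hspa5. When unfolded proteins build up, the sensors IRE1, PERK and ATF6 signal to the nucleus. IRE1 cuts a short intron out of Xbp1 mRNA so that an active transcription factor is made, ATF6 is cleaved into another, and PERK slows translation while raising Atf4 and Ddit3. Oligodendrocytes pass large amounts of myelin membrane protein and lipid through the ER, and the response is known from disorders in which myelin proteins misfold.

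Libraries held 10928206 to 15440437 estimated counts. The 7 oligodendrocyte markers (among them Mbp and Mag) summed to 67050.1 to 102132 counts per 1 M (CPM) per library, so the markers of the labelled cell type were present in every library. In RalAB cKO 3 of the 7 were called lower, and 0 higher, both against control and against RalA cKO. Of all tested genes 18.4% were called in the first of these comparisons and 11.5% in the second. The 10 microglial markers summed to 198 to 433 CPM in control, 134 to 215 in RalA cKO and 900.5 to 1724 in RalAB cKO, and 9 of the 10 were called higher in RalAB cKO than in control. The 6 neuronal markers summed to 58.7 to 124 CPM in control, 39.4 to 73.9 in RalA cKO and 23.7 to 34.6 in RalAB cKO. Control 3 had the highest neuronal, endothelial and oligodendrocyte precursor sums of all libraries. Control libraries had 32.7 to 41.4 transcripts per 1 M (TPM) of Rala, above all RalA cKO (18.2 to 25.4) and RalAB cKO (18.5 to 28.3) libraries. In CPM the groups overlapped for Rala, at 35.5 to 59.3 in control, 33.1 to 42.7 in RalA cKO and 32.2 to 42.9 in RalAB cKO. In the count test the fall of Rala was not called (log2 fold change -0.31 ± 0.15 SE, adjusted p = 0.236, and -0.39 ± 0.15, adjusted p = 0.0832). For Ralb, control libraries had 12.1 to 19.0 TPM, RalA cKO libraries 8.45 to 11.8 and RalAB cKO libraries 10.4 to 11.98. In the count test Ralb gave -0.32 ± 0.15 (adjusted p = 0.229) and -0.28 ± 0.15 (adjusted p = 0.216) against control, with overlapping CPM and 0.03 ± 0.15 between the mutants. These values cover all exons, the floxed ones being not given in the sources used here.

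Promoter sequences show which of these genes hold an exact match, near the annotated start, to elements read by the response. The stretches that carry a match are shown first. Sequences of all 10 genes were matched by symbol in RefSeq (GRCm38.p6), as windows from 250 bases before to 50 after the annotated start, and each was searched on both strands. The ER stress response element (CCAAT, any 9 bases, then CCACG), to which NF-Y and ATF6 or XBP1 are known to bind, was in 39 of 32807 windows (0.119%) and in 4 of the 10: Hspa5, Hsp90b1, Calr and Canx. The related element ATTGG, any 1 base, then CCACG was in 12 windows (0.0366%), and Herpud1 held it. The core of a further element (TGACG followed at once by TGG) was in 0.677% of windows and in 0 of the 10. The single parts CCAAT (37.4% of windows) and CCACG (32.8%), which overlap the longer elements, each stood in 9 of the 10, all but Xbp1. The 250 bases before the start, 5′ to 3′ on the gene's strand with the matched element in capitals, are given for Hspa5 (chr2:34771840-34772089, plus strand), Hsp90b1 (chr10:86705445-86705694, minus strand) and Herpud1 (chr8:94386179-94386428, plus strand), and for Xbp1 (chr11:5520391-5520640, plus strand), the gene with the largest change, which has no capitals because no element matched.
Hspa5: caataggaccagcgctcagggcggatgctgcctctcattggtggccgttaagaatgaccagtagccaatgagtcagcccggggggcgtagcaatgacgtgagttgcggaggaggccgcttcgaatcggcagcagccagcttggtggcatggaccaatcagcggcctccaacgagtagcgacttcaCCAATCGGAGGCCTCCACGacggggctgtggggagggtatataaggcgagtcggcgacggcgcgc
Hsp90b1: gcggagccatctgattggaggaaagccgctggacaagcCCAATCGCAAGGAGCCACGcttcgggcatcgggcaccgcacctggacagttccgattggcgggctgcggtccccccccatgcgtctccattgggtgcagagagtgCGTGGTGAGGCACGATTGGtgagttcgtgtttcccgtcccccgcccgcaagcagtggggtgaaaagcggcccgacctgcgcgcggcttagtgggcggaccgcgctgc
Herpud1: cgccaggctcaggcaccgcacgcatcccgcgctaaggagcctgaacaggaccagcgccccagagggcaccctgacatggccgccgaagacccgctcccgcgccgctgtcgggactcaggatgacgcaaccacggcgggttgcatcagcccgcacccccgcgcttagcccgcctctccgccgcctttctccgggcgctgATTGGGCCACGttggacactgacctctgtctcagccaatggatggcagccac
Xbp1: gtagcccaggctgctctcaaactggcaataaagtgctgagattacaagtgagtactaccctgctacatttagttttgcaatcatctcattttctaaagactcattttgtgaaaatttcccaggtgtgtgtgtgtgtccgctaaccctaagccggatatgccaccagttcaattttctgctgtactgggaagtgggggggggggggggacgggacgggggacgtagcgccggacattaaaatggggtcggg
In Hspa5 the element ran from base -65 to -47 before the start. Hsp90b1 held it from -212 to -194 and again in the reverse direction from -107 to -89, and the shorter element of Herpud1 ran from -52 to -42. The elements of Calr (reverse direction, -162 to -144) and Canx (-145 to -127) were the following.
Calr: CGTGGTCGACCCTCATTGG
Canx: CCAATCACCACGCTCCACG
A match describes letters in a window, and binding was not measured. Only exact matches were searched, so a variant of an element, or one outside the window, would have been missed.

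In control cells the lectin chaperone and lumenal chaperone mRNAs were the most abundant of the 10 and the Hsp40 gene Dnajb9 the least, on the length-normalised TPM scale. Calr, which encodes the calcium-binding lectin chaperone calreticulin, stood first at 871 ± 226 TPM (SD, n = 4), above 98.7% of tested genes. Canx, its membrane-bound relative calnexin (221 ± 44.7), Hsp90b1, the ER HSP90 GRP94 (173 ± 38.7), and Hspa5 (163 ± 57.7) followed, and each overlapped the next. Sdf2l1, a cofactor of the BiP cycle, had 77.6 ± 16.3 TPM and Pdia4, a disulfide isomerase, 65.3 ± 17.1, again with overlap. Below them came the transcription factor Xbp1 (31.6 ± 5.18), Herpud1 (30.1 ± 6.44) and Edem1 (24.1 ± 3.63), which overlapped each other in that order. Dnajb9, an Hsp40 partner of BiP that also acts on IRE1, was at 12.2 ± 2.44 TPM, below every control value of Edem1. Neighbours that did not overlap were thus Calr over Canx, Hspa5 over Sdf2l1, Pdia4 over Xbp1, and Edem1 over Dnajb9. Summed over the 10 genes the level was 1669 ± 375 TPM in control, 1611 ± 214 for RalA cKO and 1599 ± 149 for RalAB cKO (SD, n = 4 each), differences smaller than the SD. Calr alone made up most of each sum, with 871, 930 and 894 TPM in the same order.

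Of the 10 genes, Xbp1 alone passed the test in RalA cKO against control, where 2.78% of 13456 tested genes did, and none passed in RalAB cKO against control, where 18.4% did; in the latter no gene of the 10 was without overlap of its groups, beside 19.2% of all genes. Between the mutants Xbp1 was lower and Edem1 higher in RalAB cKO, 2 of 10 beside 11.5% of all genes. The test was edgeR's quasi-likelihood F test with Benjamini-Hochberg adjustment over all tested genes at 0.05. At an unadjusted p under 0.05, 1 of the 10 (Herpud1) differed between RalAB cKO and control, where 32.1% of all tested genes did. The median log2 fold change of the 10 was 0.07, 0.09 and -0.01 in the 3 comparisons in that order, beside -0.02, -0.01 and -0.03 over all tested genes. The 3 comparisons share groups in pairs, so their values are not independent of each other. In sorted bulk cells, fewer cells of a type and less RNA per cell cannot be told apart.

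Xbp1 (chr11:5520659-5525893, plus strand) encodes the transcription factor of the IRE1 arm. Its levels in the control mice numbered 1 to 4 were 33.5, 30.3, 37.8 and 43.7 CPM, in RalA cKO 49.7, 56.6, 62.2 and 70.7, and in RalAB cKO 41.9, 41.1, 51.0 and 35.7. Every RalA cKO library was above every control library, a separation in either direction that 11.4% of all genes showed, and the RalAB cKO libraries lay across both ranges. Xbp1 rose 1.65-fold in RalA cKO (log2 fold change 0.72 ± 0.14 SE, 95% interval 0.42 to 1.02, adjusted p = 0.0150). In RalAB cKO against control the log2 fold change was 0.22 ± 0.14 (adjusted p = 0.300), and RalAB cKO was lower than RalA cKO by -0.50 ± 0.14 (adjusted p = 0.0297). The difference between the mutants kept its direction in 25 other settings and its call in 18. It was no longer called without RalA cKO 2, 3 or 4 or RalAB cKO 2 or 4 (-0.52 to -0.41). The same held on log2(TPM + 1) (-0.42, adjusted p = 0.120) and log2(TPM + 0.1) (-0.43, adjusted p = 0.119). All 25 other settings gave the same direction in RalA cKO against control, and 20 kept the call. It was lost without control 2 (0.65, adjusted p = 0.0591), without RalA cKO 4 (0.63, adjusted p = 0.0668), with Y-linked expression as a covariate (0.76, adjusted p = 0.0514) and on log2(TPM + 1) (0.51, adjusted p = 0.0686) or log2(TPM + 0.1) (0.52, adjusted p = 0.0691). Of all genes 0.752%, 0.62%, 0.691%, 3.97% and 3.78% were called at these settings in that order, beside 2.78% in the main fit.

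**Figure D1:**
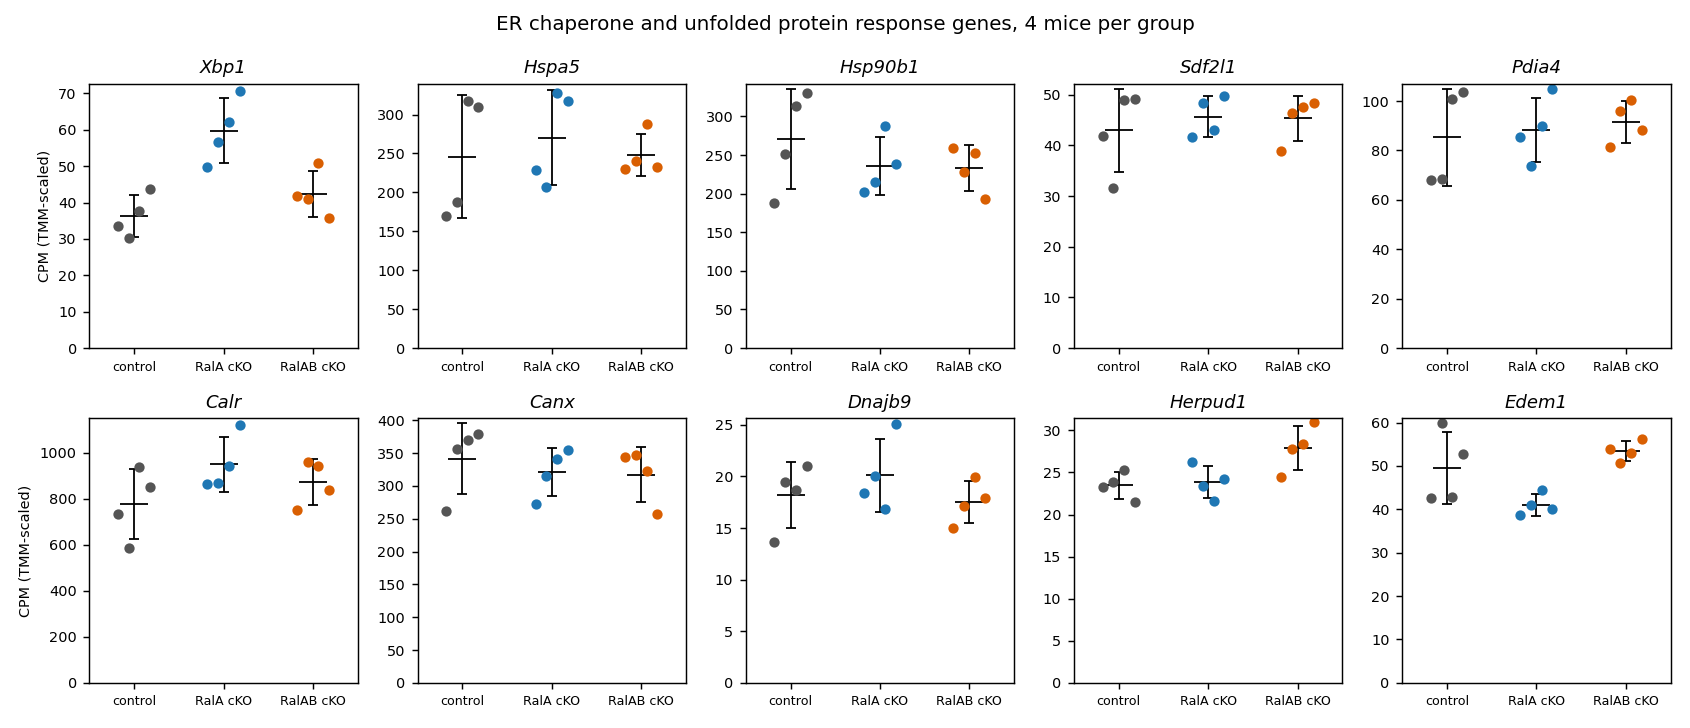
Level of each of the 10 genes in every mouse, in TMM-scaled CPM, with points for mice and bars for the group mean ± SD (n = 4). The RalA cKO points of Xbp1, at 49.7 to 70.7 CPM, all lie above its control points at 30.3 to 43.7, whereas the groups overlap for the other 9 genes in that comparison.

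The deposited transcript set cannot resolve the active form of Xbp1 mRNA. The shortest annotated intron in any Xbp1 transcript was 300 bases, far longer than the piece IRE1 removes, so spliced and unspliced mRNA were counted together. The full-length transcript Xbp1-201 carried most of the gene's TPM, and its log2 fold change in RalA cKO against control was 0.69 ± 0.16 (adjusted p = 0.145 over 31497 transcripts). On the TPM scale the RalA cKO values of Xbp1 began at 36.9 and the control values ended at 36.6, a gap smaller than the control SD of 5.18.

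The lumenal chaperones Hspa5, Hsp90b1, Sdf2l1 and Pdia4 did not pass the test in any comparison. Hspa5 (chr2:34771970-34777547, plus strand) had 169, 188, 317 and 310.2 CPM in control, 229, 206, 328 and 317 in RalA cKO, and 230.5, 239.9, 288 and 233 in RalAB cKO. The control mice fell into a low and a high pair that spanned nearly the whole range of both mutants. Against control its log2 fold change was 0.14 ± 0.21 for RalA cKO (adjusted p = 0.722), and RalAB cKO gave 0.01 ± 0.21 (adjusted p = 0.980). Hsp90b1 (chr10:86690209-86705509, minus strand) had 188, 252, 313 and 329.7 CPM in control, 202, 215, 287 and 238 in RalA cKO, and 258, 228, 252 and 193 in RalAB cKO. Here the control range enclosed all mutant libraries, and the log2 fold changes were -0.20 ± 0.16 (adjusted p = 0.468) and -0.22 ± 0.16 (adjusted p = 0.391); without control 1 they were -0.34 and -0.36, and without control 4 -0.077 and -0.094. Sdf2l1 ranged from 31.6 to 49.2 CPM in control, 41.6 to 49.8 in RalA cKO and 38.8 to 48.4 in RalAB cKO. Pdia4 ranged from 68.0 to 104 CPM, 73.7 to 105 and 81.6 to 100.3 in the same order.

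Among the lectin chaperones, which hold glycoproteins until they fold, Calr (chr8:84841850-84846934, minus strand) had 736, 586, 939 and 851 CPM in control, 866, 870.1, 942 and 1123 in RalA cKO, and 749.7, 962, 944 and 840.1 in RalAB cKO. Its RalA cKO libraries lay in the upper part of the control range or above it, and its log2 fold change there was 0.29 ± 0.14 (adjusted p = 0.239; 0.12 on the TPM scales). Canx (chr11:50293961-50325673, minus strand) ranged from 261 to 379 CPM in control, 272 to 355 in RalA cKO and 256 to 346 in RalAB cKO, so the groups overlapped. Its log2 fold changes were -0.09 ± 0.13 in RalA cKO and -0.11 ± 0.13 in RalAB cKO against control, and on log2(TPM + 0.1) they were -0.45 and -0.31, also not called.

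The genes of degradation and the Hsp40 gene differed among themselves. Edem1 (chr6:108828641-108859356, plus strand), which directs misfolded glycoproteins to ER-associated degradation, had 42.6, 59.9, 42.9 and 52.8 CPM in control, 38.6, 40.9, 44.3 and 39.99 in RalA cKO, and 53.9, 50.7, 52.9 and 56.1 in RalAB cKO. All RalAB cKO libraries were above all RalA cKO libraries, while the control libraries enclosed the RalAB cKO range and 3 of the 4 RalA cKO libraries lay below all of them; 17.3% of all genes did not overlap between the mutants. Edem1 rose in RalAB cKO relative to RalA cKO by 0.38 ± 0.11 on the log2 scale (adjusted p = 0.0389), while RalA cKO against control gave -0.27 ± 0.11 (adjusted p = 0.171). On the TPM scale all RalA cKO libraries (13.2 to 20.2) were below all control libraries (20.8 to 28.8), and the share of all genes separated on that scale was not computed. The full-length Edem1-201 overlapped (8.27 to 10.5 TPM in RalA cKO, 8.80 to 16.8 in control). The 368-base Edem1-203 averaged 3.59 TPM in control and 0 in RalA cKO. On log2(TPM + 0.1) the value for Edem1 was -0.58, also not called, where the median of all genes was -0.22. In this comparison voom with quality weights called Edem1 (-0.34, adjusted p = 0.0416), and without control 2 its value was -0.16. The rise between the mutants kept its direction in all 25 other settings (0.35 to 0.60, the highest on log2(TPM + 0.1)) and its call in 14 of them. Leaving out any 1 of the 4 RalAB cKO libraries, of RalA cKO 1, 2 and 4 or control 4 ended the call, with log2 fold changes of 0.35 to 0.41. Herpud1 (chr8:94386438-94395377, plus strand), an ER membrane protein of the degradation complex, had 23.3, 23.9, 25.3 and 21.5 CPM in control, 26.2, 23.3, 21.6 and 24.2 in RalA cKO, and 24.5, 27.8, 28.4 and 31.0 in RalAB cKO. Of its RalAB cKO libraries 3 were above all control libraries, with a log2 fold change of 0.25 ± 0.11 (adjusted p = 0.140), which was 0.015 on log2(TPM + 1). Dnajb9 ranged from 13.6 to 21.005 CPM in control, 16.8 to 25.05 in RalA cKO and 14.996 to 19.98 in RalAB cKO.

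**Figure D2:**
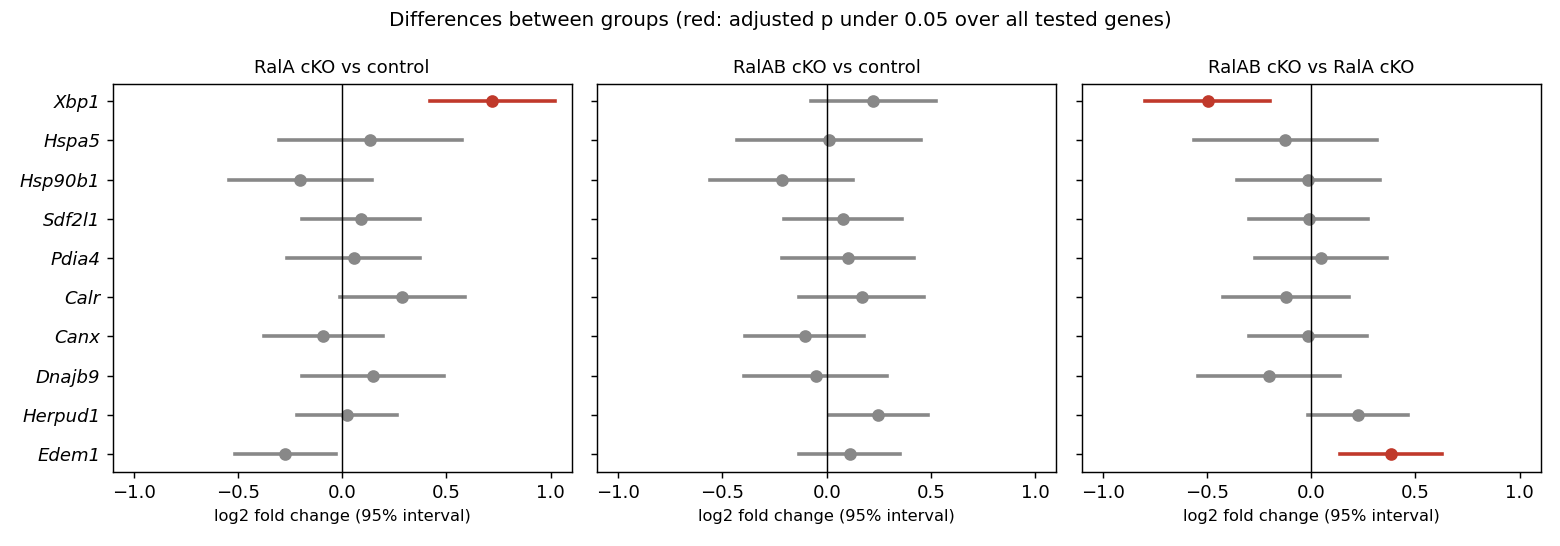
Log2 fold change of each of the 10 genes in the 3 comparisons, with 95% intervals from edgeR's quasi-likelihood fit. Red marks an adjusted p under 0.05, which Xbp1 reached in RalA cKO against control (0.72) and, with Edem1 (0.38), between the mutants (-0.50).

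For genes without a call the 95% intervals bound the size of a difference, and a missed threshold does not show that levels were equal. In RalA cKO against control the intervals of the 9 such genes lay between -0.54 and 0.59 on the log2 scale, which is 0.685-fold to 1.51-fold. In RalAB cKO against control those of all 10 lay between -0.56 and 0.52 (0.679-fold to 1.44-fold). Between the mutants those of the 8 lay between -0.56 and 0.47 (0.677-fold to 1.38-fold).

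Hspa5 varied more between mice of a group than its group means differed. It had a within-group SD of 0.35 on the log2 scale, above 98.6% of the 552 genes of like abundance (within 0.5 log2 CPM), whose median SD was 0.17. Hsp90b1 (SD 0.27, above 94.0% of its like) and Pdia4 (0.24, above 85.8%) were also widely spread, whereas Herpud1 (0.12) was above 8.17% and Edem1 (0.15) above 34.3%. The number of the 10 genes above their group mean was 0, 4, 9 and 9 in control 1 to 4, 1, 3, 6 and 9 in RalA cKO 1 to 4, and 3, 4, 9 and 4 in RalAB cKO 1 to 4. The median deviation was -0.25 in control 1, -0.16 in control 2, 0.17 in control 3 and 0.22 in control 4. Control 3 had the highest neuronal (124 CPM), oligodendrocyte precursor (519) and astrocyte (463) sums and the lowest oligodendrocyte sum (67050.1) of all libraries, while control 4 had the lowest neuronal (58.7) and precursor (298) sums of the controls. The part of these markers in the gene values was not tested.

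**Figure D3:**
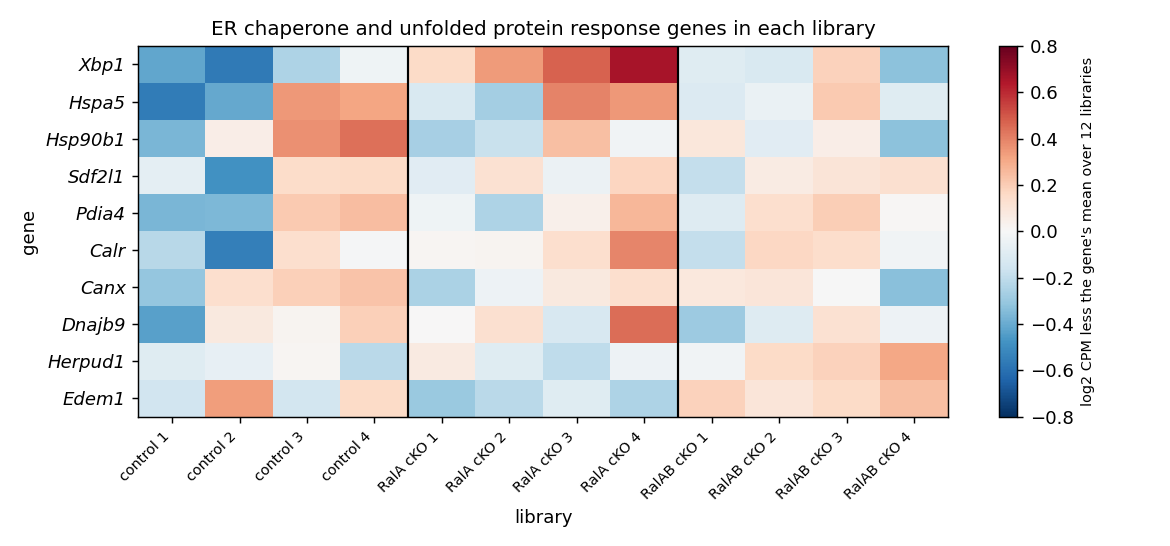
Deviation of each gene's log2 CPM from its own mean over the 12 libraries, by mouse. Control 1 is low across most of the genes and control 3 and 4 are high across most of them, though not for Xbp1. The RalA cKO libraries stand out for Xbp1.

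The genes whose profile over the 12 libraries was most like those of Hspa5 and Xbp1 were listed by distance. Likeness was the mean absolute difference of centred log2 CPM, over 9553 genes that averaged 5 CPM or more. The genes described here were left out beforehand, as were predicted and Rik genes, Xist and Y-linked genes. Absence of a gene of the set from these lists therefore says nothing about its likeness. For Hspa5 the closest were Hsph1, an HSP110 chaperone of the cytosol (0.11), Creld2 (0.12) and Manf (0.14), both secreted proteins of the ER stress response, and Ptpra (0.15), a receptor phosphatase, where the median gene differed by 0.32. For Xbp1 they were Stmn4, a stathmin of microtubules (0.10), Pak1, a kinase of the actin cytoskeleton (0.12), Cfl2, an actin-severing cofilin (0.12), and Mpc1, of the mitochondrial pyruvate carrier (0.14), with a median of 0.34. None of the closest 4 to Xbp1 was among the closest to Hspa5. These genes were picked for likeness, so no test is given.

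Single transcripts of the 10 genes added no call. Of 40 transcripts 22 were tested, and 0 passed in any comparison, where 0.117% of all 31497 did in RalA cKO and 1.68% in RalAB cKO against control, with 1.52% between the mutants. At an unadjusted p under 0.05 there were 2, 1 and 1 of the 22, beside 10.8%, 13% and 10.2% of all tested transcripts. DESeq2 called 2 (in Xbp1 and Canx) in RalA cKO against control, beside 2.97% of all transcripts. The Canx one was Canx-202, a 708-base processed transcript with 56.0, 94.9, 86.8 and 97.2 TPM in control, 54.9, 39.7, 48.4 and 33.6 in RalA cKO, and 65.9, 52.9, 65.1 and 45.3 in RalAB cKO. All RalA cKO values were below all control values, by a narrow margin in control 1, beside 7.08% of all transcripts without overlap of these groups in CPM, with a log2 fold change of -0.77 ± 0.20 (edgeR adjusted p = 0.186). Its share of Canx TPM was 27.8% in RalA cKO and 32.5% in RalAB cKO, below the 37.7% of control, while the full-length Canx-201 had a log2 fold change of -0.07 ± 0.14. Calr-204, annotated as a retained intron, held 39.3% of Calr TPM in control, so summed TPM values of these genes include short transcripts. Estimated counts divide reads among overlapping transcripts, so these shares are estimates.

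Beyond the 10 genes, 96 genes of 8 lists (95 tested) covered the rest of the pathway, and few passed. In RalA cKO against control 2 of 95 did (2.11%, beside 2.78% of all genes), in RalAB cKO against control 10 (10.5%, beside 18.4%), and in RalAB cKO against RalA cKO 7 (7.37%, beside 11.5%). In the 6 lists of the ER itself (73 genes) the counts were 1, 4 and 3 and the median log2 fold changes 0.02, -0.04 and -0.03, beside -0.02, -0.01 and -0.03 over all tested genes. Without RalAB cKO 1 the count in RalAB cKO against control was 17 rather than 10 (17.9%, beside 23.6% of all genes at that setting). No gene of the lumenal Hsp70 cofactor list (11 genes), ER-associated degradation list (15) or translocation and export list (16) passed in any comparison. Their most abundant genes by mean TPM over all 12 libraries are given here with their mean TPM in control. They were Manf (162) and Cnpy2 (174), Os9 (172) and Vcp (382), and Sec61g (234) and Kdelr1 (165). In the 9 sensors and transcription factors Creb3l2, an ER-bound transcription factor, was higher in RalAB cKO than in control and in RalA cKO, by 0.35 ± 0.09 each time (adjusted p = 0.0155 and 0.0204). The rise against control was no longer called without RalAB cKO 2 (0.32, adjusted p = 0.0550) or on either TPM scale (0.22, adjusted p = 0.243 on log2(TPM + 1)), nor that against RalA cKO without RalA cKO 1 or 2 or RalAB cKO 2, 3 or 4, or with no count filter. The genes of the 3 sensors themselves did not pass: in RalAB cKO against control Ern1 gave -0.04 ± 0.22, Eif2ak3 -0.23 ± 0.10 and Atf6 -0.01 ± 0.10.

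**Figure D4:**
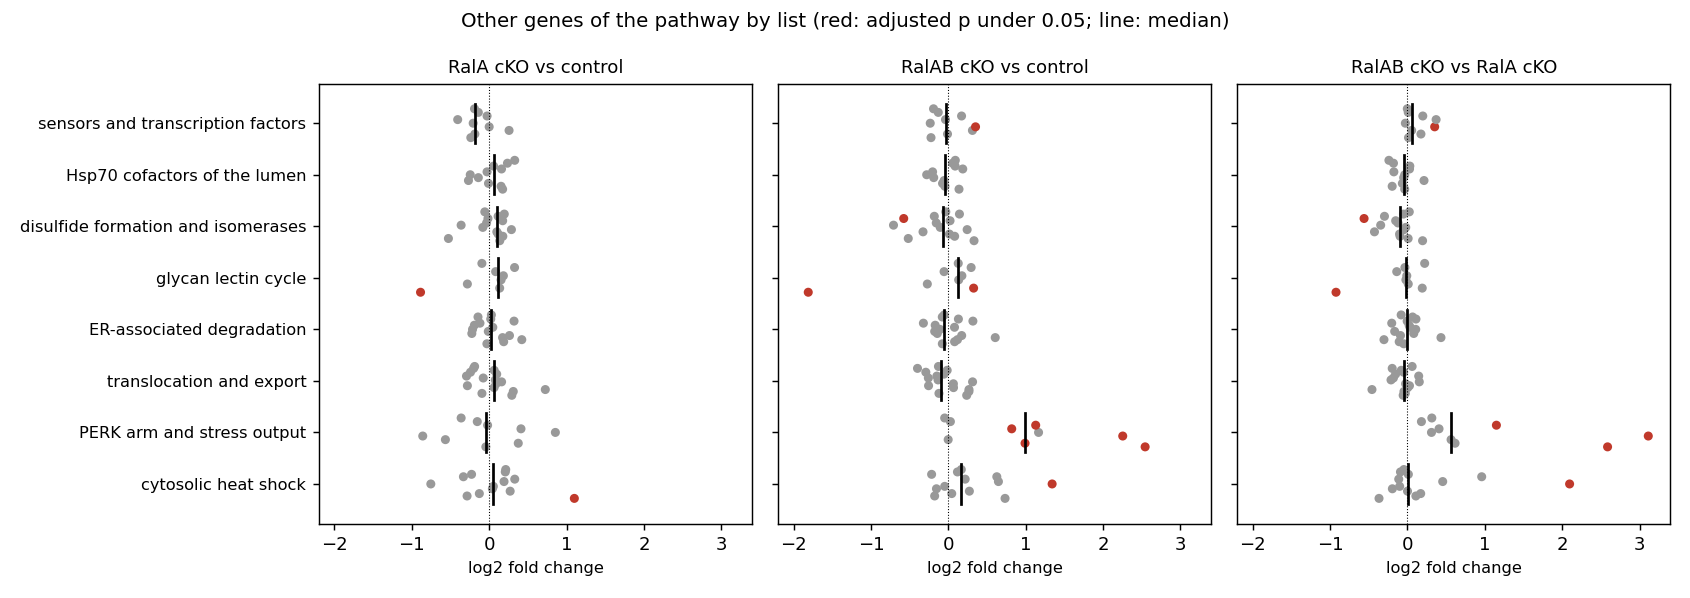
Log2 fold change of each tested gene of the 8 pathway lists in the 3 comparisons, with points for genes and red for an adjusted p under 0.05. The 6 lists of the ER centre near 0 with Clgn as their lowest point (-1.81 in RalAB cKO), and the PERK arm list has its median at 0.99 in RalAB cKO against control.

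The lectin cycle list (8 genes) held the largest fall of the ER lists, in Clgn, a calnexin relative known from the testis. Its levels were 54.0, 69.2, 51.3 and 74.7 CPM in control, 32.5, 38.2, 30.7 and 33.2 in RalA cKO, and 23.98, 17.6, 16.7 and 12.6 in RalAB cKO. No group overlapped another. Of all genes, 11.4% did not overlap between RalA cKO and control, 19.2% between RalAB cKO and control and 17.3% between the mutants. Against control Clgn fell by 0.89 ± 0.17 on the log2 scale with RalA deleted (adjusted p = 0.0116) and by 1.81 ± 0.17 with both deleted (adjusted p = 1.39e-05), and RalAB cKO was lower than RalA cKO (-0.92 ± 0.17, adjusted p = 0.00169). Without control 2 or RalA cKO 4, or with the Y-linked covariate, the fall in RalA cKO was no longer called (-0.83, -0.88 and -0.70). Of all genes 0.752%, 0.62% and 0.691% were called at these settings, beside 2.78% in the main fit. Canx and Calr, its relatives, had RalAB cKO against control values of -0.11 ± 0.13 and 0.17 ± 0.14. Ganab, a subunit of glucosidase II, rose in RalAB cKO by 0.33 ± 0.10 (adjusted p = 0.0332), a call kept in 14 of 25 other settings and lost without control 1 or 2 or RalAB cKO 2, 3 or 4. In the 14 genes of disulfide formation Prdx4, an ER peroxiredoxin, had 24.9 to 32.6 CPM in control, 26.5 to 33.2 in RalA cKO and 17.3 to 21.2 in RalAB cKO. Prdx4 fell by 0.58 ± 0.13 in RalAB cKO against control (adjusted p = 0.00611) and by 0.56 ± 0.13 against RalA cKO (adjusted p = 0.00910).

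In the PERK arm and stress output list (9 of 10 genes tested) 5 genes rose in RalAB cKO against control, where 18.4% of all tested genes were called. Against RalA cKO 3 rose, beside 11.5% of all genes called, and 0 were called in RalA cKO against control, beside 2.78%. The rest of the list, Ppp1r15b, Trib3, Chac1, Sesn2 and Bcl2l11, had no call in the main fit, the untested gene being among them. The log2 fold changes of the list in RalAB cKO against control ran from -0.05 to 2.54. Their median was 0.99, beside -0.01 over all tested genes. Atf3, a stress-induced transcription factor, had 2.42, 2.86, 12.8 and 6.82 CPM in control, 6.26, 4.598, 7.16 and 6.26 in RalA cKO, and 23.3, 25.6, 44.8 and 52.4 in RalAB cKO. Every RalAB cKO library was above every other library. Of all genes, 19.2% did not overlap between RalAB cKO and control, in either direction, and 17.3% between the mutants. Atf3 rose by 2.54 ± 0.46 on the log2 scale against control (adjusted p = 0.00289). Bbc3, the BH3-only gene Puma, rose by 0.99 ± 0.20 (adjusted p = 0.00300). Cebpb, a transcription factor, rose by 2.25 ± 0.49 (adjusted p = 0.00473) from 0.27 to 1.63 CPM in control to 2.00 to 7.30. Ppp1r15a, the phosphatase subunit GADD34, rose by 1.13 ± 0.26 (adjusted p = 0.0101), and Ddit3, the transcription factor CHOP, by 0.82 ± 0.27 (adjusted p = 0.0478); both were named after their values were seen. The Ppp1r15a call was lost on log2(TPM + 1) (0.85, adjusted p = 0.0792) and log2(TPM + 0.1) (0.87, adjusted p = 0.0853). The Ddit3 call was kept in 12 of 25 other settings and lost without any of control 1, 2 or 3, RalA cKO 2 or 4, or RalAB cKO 2, 3 or 4. Atf4 itself gave -0.22 ± 0.16 (adjusted p = 0.357), and Eif2ak3, which encodes PERK, did not pass. Microglial markers summed to 900.5 to 1724 CPM in RalAB cKO against 198 to 433 in control, and their part in these rises was not tested.

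**Figure D5:**
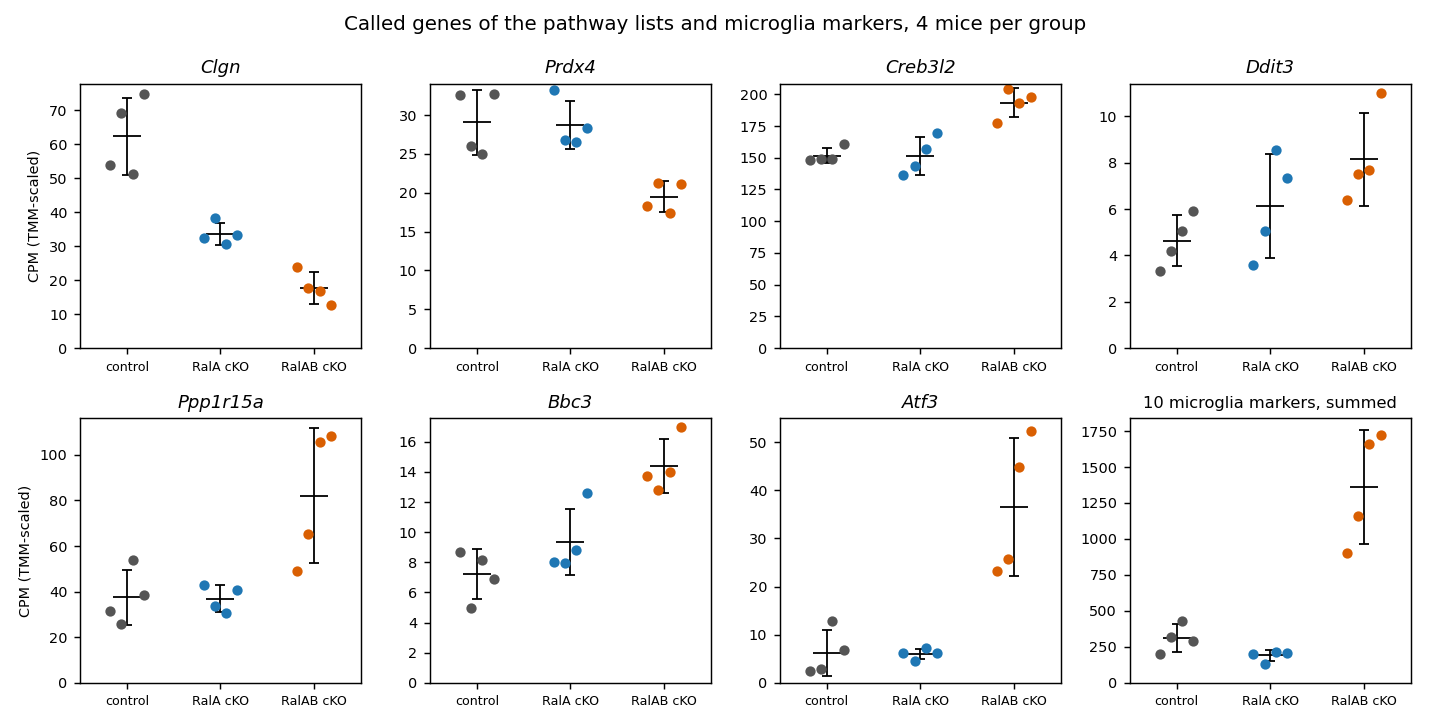
Level in every mouse of 7 pathway genes that passed the test (Clgn, Prdx4, Creb3l2, Ddit3, Ppp1r15a, Bbc3 and Atf3) and of the 10 microglial markers summed, in TMM-scaled CPM, with points for mice and bars for the group mean ± SD (n = 4). Clgn steps down from control (51.3 to 74.7 CPM) to RalA cKO (30.7 to 38.2) and RalAB cKO (12.6 to 23.98), and Atf3 is highest in RalAB cKO (23.3 to 52.4).

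The 13 cytosolic heat shock genes, a list outside the ER, gave 1 call in each comparison. Calls among all tested genes came to 2.78% for RalA cKO and 18.4% for RalAB cKO, each relative to control. The share was 11.5% for RalAB cKO relative to RalA cKO. Bag3, a co-chaperone of HSP70, rose in RalA cKO from 2.86 to 6.18 CPM in control to 7.16 to 11.6, by 1.1006 ± 0.26 (adjusted p = 0.0322). The Bag3 call was lost without control 2 or 3 or RalA cKO 1 or 4, and in 8 of 25 other settings in all. Hspa1a, a stress-induced HSP70, rose in RalAB cKO by 1.34 ± 0.38 against control (adjusted p = 0.0230) and by 2.10 ± 0.41 against RalA cKO (adjusted p = 0.00223). Its levels were 1.43 to 3.13 CPM in control and 2.60 to 7.68 in RalAB cKO, and since Hspa1b is a near-identical copy, the division of reads between them is uncertain. The call against control was lost without control 1, 2 or 4 or RalAB cKO 3 or 4, with the Y-linked covariate and on both TPM scales (0.73, adjusted p = 0.0611 on log2(TPM + 1)). That against RalA cKO was lost in none of the 25 other settings and was 1.14 on log2(TPM + 1). Hspa1b gave 0.65 ± 0.48 in RalAB cKO against control (adjusted p = 0.387).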

How the data were processed

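Each library came from 1 mouse, and mouse numbers name separate animals. The files deposited by the authors list estimated counts, TPM values and effective lengths per transcript. In the submitters' processing notes Trimmomatic 0.36, kallisto 0.44 and GRCm38.p6 are named, with roles not given in the sources used here. Libraries were stranded mRNA per the labels.

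Estimated counts of the authors were summed to GENCODE M21 genes (121104 of 121843 transcripts matched) and rounded. All 12 libraries were fitted once in edgeR 4.0.16 (R 4.3.3) with TMM scaling, its count filter (minimum count 10, total 15; 13456 genes) and robust quasi-likelihood F tests, with p-values adjusted by Benjamini and Hochberg (threshold 0.05). Standard errors come from F (fold change on the log2 scale over its root). TPM values, deposited by the authors, gave levels between genes and, on log2(TPM + 1) and log2(TPM + 0.1), alternatives with limma 3.58.1. Effective lengths from the deposited files gave length offsets. DESeq2 1.42.0 was a further alternative, as were its size factors, library totals alone, other count filters, voom quality weights, fits of only the groups compared, a replicate block, protein-coding genes only, Y-linked expression as a covariate (the labels used here name no sex) and leaving out each library. Replicate libraries of a group were compared by chi-square and all differed beyond sampling noise (9.09 to 39.5 per degree of freedom).

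The 10 genes, the pathway lists and the marker lists (oligodendrocyte, microglia, astrocyte, neuron, endothelial, oligodendrocyte precursor, pericyte and fibroblast, Schwann cell, erythroid) were chosen with earlier results of these data known, and 1 item of the oligodendrocyte list is not reported here. Named were all 10 genes, up to 2 called genes with the smallest p per list and comparison, the 2 of highest mean TPM in lists without a call, and the 4 genes most like Xbp1 and Hspa5. The genes of the sensors, Atf4, Hspa1b and the uncalled genes of the PERK arm list were named as well, after their values were seen. Astrocyte markers summed to 308 to 463 CPM in control, 267 to 410.2 in RalA cKO and 243 to 271 in RalAB cKO, oligodendrocyte precursor markers to 298 to 519, 181 to 310.3 and 86.1 to 252, and endothelial markers to 14.7 to 40.9, 8.64 to 16.7 and 12.5 to 21.5. Pericyte and fibroblast markers summed to at most 23.4 CPM in any library, Schwann cell markers to at most 11.8 and erythroid markers to at most 125.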

Additional observations from a re-analysis of the deposited data

Results flagged for a closer look

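In 81 sets of 4 libraries (the 10 genes and 17 named pathway genes in 3 groups), 2 had a library far from the other 3 by Dixon's test, which chance does in about 1 in 20 sets. Hspa5 in RalAB cKO 3 was 288 CPM, above the other RalAB cKO libraries at 230.5 to 239.9. Creb3l2 in control 4 was 161 CPM, above the other control libraries at 148 to 149.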

How the results depend on the processing

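Most of the 25 other settings changed 1 choice, but those on TPM changed unit, scaling and test together, and DESeq2 its scaling with the test. In RalA cKO against control 1 of the 10 genes was called, and 2 were with limma-voom quality weights, 0 on log2(TPM + 1), 0 on log2(TPM + 0.1), 0 with the Y-linked covariate and 0 to 1 with 1 library left out (0 without control 2 or RalA cKO 4). Of all genes 2.78% were called there in the main fit, 13.3% with quality weights and 3.97% and 3.78% on the TPM scales. With the Y-linked covariate the share was 0.691%. It was 0.752% without control 2, 0.62% without RalA cKO 4 and up to 6.93% without other libraries. In RalAB cKO against control 0 were called, 1 with quality weights (Herpud1, 0.31, adjusted p = 0.0376) and 0 with any 1 library left out. The shares of all genes were 18.4%, 30.3% and 11.7% to 23.6% in that order. Between the mutants 2 were called, 1 with no count filter, 1 on log2(TPM + 1), 1 on log2(TPM + 0.1), 1 with the Y-linked covariate and 0 to 2 with 1 library left out. Here the shares of all genes were 11.5%, 5.95%, 8.64%, 8.71%, 10.8% and 8.15% to 12.3% in the same order. Pathway genes called in RalA cKO against control were 2, and 1 with library totals alone, 6 with quality weights (6.32%, beside 13.3% of all genes), 1 on either TPM scale, 0 with the Y-linked covariate and 0 to 3 with 1 library left out. In RalAB cKO against control they were 10, 27 with quality weights (28.4%, beside 30.3% of all genes), 6 on log2(TPM + 0.1) and 7 to 17 with 1 library left out, and between the mutants 7 and 6 to 8. Transcripts of the 10 genes called in RalA cKO against control were 0, and 2 with DESeq2. The cause of these changes was not tested.

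With the mouse number as a replicate block, 1, 0 and 1 of the 10 genes, 2, 9 and 7 pathway genes and 232, 2146 and 1343 of all genes were called, against 374, 2478 and 1551 of all genes without it. Edem1 between the mutants was no longer called with the block (0.38, adjusted p = 0.0708). Libraries with the same number had correlations of their deviations between -0.20 and 0.18 in 12 pairs, and 2 of 12 libraries correlated best with their own number, so the numbers were not taken as a pairing.

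Uncalled values near 0 changed sign in some settings. With quality weights Hspa5 was -0.051 in RalA cKO and -0.018 in RalAB cKO against control, but 0.032 between the mutants, Hsp90b1 0.011 between the mutants and Pdia4 -0.065 in RalA cKO. On log2(TPM + 1) Hspa5 was -0.027 and -0.046 against control in the same order, Hsp90b1 0.059 between the mutants, Sdf2l1 -0.074, -0.036 and 0.038, Pdia4 -0.12 in RalA cKO, Canx 0.14 between the mutants, Dnajb9 -0.059 in RalA cKO and Herpud1 -0.22 in RalA cKO, and on log2(TPM + 0.1) the values were -0.027 and -0.045, 0.059, -0.074, -0.036 and 0.038, -0.12, 0.14, -0.062 and -0.23 in the same order. With library totals alone Hspa5 was -0.089 in RalAB cKO, Hsp90b1 0.014 between the mutants, Sdf2l1 -0.031, -0.018 and 0.013, Pdia4 -0.067 and Herpud1 -0.098 in RalA cKO, and Canx 0.018 between the mutants. With the replicate block Hsp90b1 was 0.0064 between the mutants. With the Y-linked covariate Pdia4 was -0.013 between the mutants, and Canx 0.064 and Herpud1 -0.031 in RalA cKO, and with length offsets Canx was 0.083 between the mutants and Herpud1 -0.034 in RalA cKO. With 1 library left out, values ranged from -0.0075 to 0.28 and from -0.13 to 0.16 for Hspa5 in RalA cKO and RalAB cKO, from -0.082 to 0.094 for Hsp90b1 between the mutants, from -0.025 to 0.17, -0.040 to 0.16 and -0.055 to 0.048 for Sdf2l1, from -0.040 to 0.18 in RalA cKO and -0.031 to 0.14 between the mutants for Pdia4, from -0.088 to 0.074 for Canx between the mutants, from -0.17 to 0.030 for Dnajb9 in RalAB cKO and from -0.025 to 0.071 for Herpud1 in RalA cKO. The median of all genes in RalA cKO against control shifted by -0.12 with library totals alone, -0.16 on log2(TPM + 1) and -0.19 on log2(TPM + 0.1), and by -0.11 and -0.13 on the TPM scales in RalAB cKO. No setting that varies depth was run.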
